A study of Mus musculus with 8 samples.

Results

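Ccl3, Ccl4, Ccl5, Ccl6 and Ccl9 are genes of inflammatory CC chemokines, and Ccr1 and Ccrl2 encode a receptor and a receptor-like protein of the same system. They were chosen by name, and each matched 1 of the 25572 genes of the count table, so all 7 could be followed in every library. RNA sequencing had been done on neutrophils sorted by surface ICAM1 (CD54) from PyMT-N tumours of C57/B6 mice, the tumour and strain named in the series design. The ICAM1-high group (cd54+ in the titles) and the ICAM1-low group (cd54-) had 4 libraries each, numbered 1, 2, 3 and 5, each from 150 pg of total RNA. Both groups came from tumour-bearing mice and no other treatment, allele or age is given. Nothing in the labels ties a library to an animal, so a p-value here reflects only how these libraries vary, and that variation may be technical.

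CC chemokines are small secreted proteins, named for a pair of adjacent cysteines, that draw leukocytes along a gradient by binding G protein-coupled receptors. CCL3 and CCL5 bind CCR1. CCL6 and CCL9 are rodent chemokines with an extended N-terminal region that act through CCR1 and are abundant in myeloid cells. CCRL2 is atypical: it does not drive migration itself but binds the chemoattractant chemerin and presents it to other cells, and it has been described to pair with CXCR2 on neutrophils.

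Library totals ran from 15940080 to 21824788 counts, and a count of 3, the detection floor for counting error only, was worth 0.121 to 0.263 CPM (counts relative to the TMM-scaled library size). The 15 neutrophil markers examined were present in every library, summing to 7902 to 38105 CPM in the ICAM1-low and 2004 to 4931 CPM in the ICAM1-high libraries, while 17 macrophage markers summed to 2941 to 3937 and 10980 to 24723 CPM. No macrophage or neutrophil marker was at 0 in any library. The macrophage sum exceeded the neutrophil sum in every ICAM1-high library, and the reverse held in every ICAM1-low library. The sums are of RNA over lists of unequal size, so they do not give the share of each cell type. ICAM1-low replicate 5 stood apart: it held the highest neutrophil sum, and its Icam1 level was 138 CPM against 4.31 to 18.7 CPM in the other ICAM1-low and 42.4 to 122 CPM in the ICAM1-high libraries. Its TMM factor was 0.718, against 0.956 to 1.17 in the other libraries, which raises its CPM. As a length-corrected level (TPM) its Icam1 was 77.1, within the 31.3 to 80.4 of the ICAM1-high libraries. With all libraries Icam1 was not past the threshold (log2 fold change 0.67 ± 0.92 SE, edgeR adjusted p = 0.754). Without ICAM1-low replicate 5 it was 2.64 ± 0.65 (SE, edgeR adjusted p = 0.0483). Without both libraries numbered 5 it was 2.22 ± 0.65 (SE, edgeR adjusted p = 0.0958). ICAM1-low replicate 5 was set apart partly by its Icam1 level, so these values are no independent check of the sort. Results are therefore given with ICAM1-low replicate 5 and without it.

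In the main fit (all 8 libraries, TMM scaling) none of the 7 genes passed the threshold between the groups by the quasi-likelihood test of edgeR. The threshold was a p under 0.05 after Benjamini-Hochberg adjustment over 13575 genes, and 1.50% of all genes passed it. At an unadjusted edgeR p under 0.05 there were 2 of 7, Ccl5 and Ccl9, against 16.9% of all genes. In 1 of 7, Ccl9, the levels of the groups did not overlap, which was also so for 11.4% of all genes tested. Log2 fold changes, ICAM1-high minus ICAM1-low, were positive for 4 genes and negative for 3, with a median of 0.16 beside -0.07 over all genes. Without ICAM1-low replicate 5, 2 of 7 passed, Ccl4 and Ccl9, both higher in ICAM1-high, where 2.36% of genes tested were called higher. Non-overlap then held for 3 of 7, Ccl4, Ccl5 and Ccl9, all with ICAM1-high above. In that direction 11.5% of genes did so, and 22.3% in either. Ccl5 was kept for the test only through its ICAM1-high levels, so its direction in these counts was largely fixed by the filter. In sorted populations, more cells of one type and more RNA per cell cannot be told apart.

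**Figure D1:**
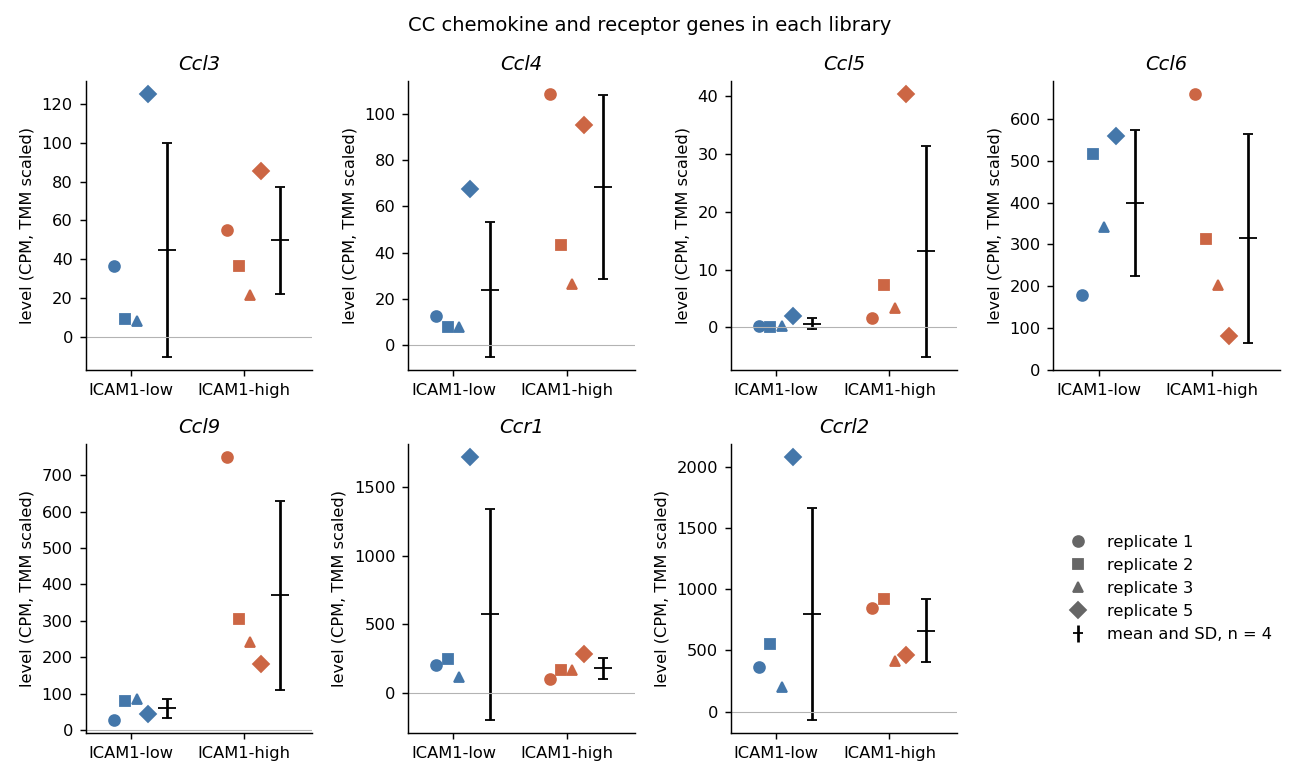
Level of each of the 7 genes in each library, in CPM on the TMM scale (a linear axis of its own for each gene, including 0); symbols are the libraries by replicate number, and the bar is the mean and SD of 4 libraries. Ccl9 is higher in all 4 ICAM1-high libraries (182 to 750.1 CPM) than in any ICAM1-low library (28.7 to 84.9 CPM), while ICAM1-low replicate 5 holds the highest level of Ccl3, Ccr1 and Ccrl2.

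Ccl9 (ENSMUSG00000019122), a CCR1 ligand made by myeloid cells, stood at 28.7, 79.2, 84.9 and 45.7 CPM in ICAM1-low replicates 1, 2, 3 and 5, and at 750.1, 304, 243 and 182 CPM in ICAM1-high replicates 1, 2, 3 and 5. Every ICAM1-high library lay above every ICAM1-low library, and ICAM1-high replicate 1 was the highest. The means were 59.6 ± 26.9 and 369.8 ± 258 CPM (SD, n = 4), a 6.20-fold difference with a log2 fold change of 2.63 ± 0.58 (SE). The edgeR adjusted p was 0.0504, just short of the threshold. Over 17 alternative settings the adjusted p lay between 0.000854 (DESeq2) and 0.145 (edgeR without ICAM1-high replicate 1), with a lowest edgeR value of 0.0125 (no filter), and 9 of these put Ccl9 past the threshold, including the fit without ICAM1-low replicate 5 (2.53, edgeR adjusted p = 0.0458). The summed macrophage markers were also non-overlapping and higher in ICAM1-high libraries, and their part in the difference of Ccl9 was not tested.

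Its neighbour Ccl6 did not separate the groups. Ccl6 (ENSMUSG00000018927), a related CCR1 ligand of neutrophils and macrophages, stood at 178, 516, 342 and 559 CPM in ICAM1-low replicates 1, 2, 3 and 5 and at 660.1, 313, 203 and 81.0 CPM in the ICAM1-high replicates of the same numbers. The groups overlapped over most of their range, and both the highest and the lowest level were in ICAM1-high libraries. The log2 fold change was -0.34 ± 0.62 (SE; edgeR adjusted p = 0.82), and the ICAM1-high level was the higher in 1 of the 4 pairs of equal number, that of replicate 1. Without ICAM1-high replicate 5, where it was lowest, the value was 0.01. In the reference annotation a non-coding gene, E230016K23Rik, overlaps Ccl6 on the opposite strand, and whether the counting used strand is not given in the sources used here.

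In the RefSeq order of protein-coding genes, Ccl5, Ccl9, Ccl6, Ccl3 and Ccl4 follow each other on chromosome 11, so Ccl9 and Ccl6 are adjacent genes that differed in their pattern across these libraries. For that reason the 250 bases before the start site of each are shown, from RefSeq on GRCm38.p6, another build than the GRCm39 of the count table. Both genes lie on the minus strand, at chr11:83578637-83578886 for Ccl9 and chr11:83593088-83593337 for Ccl6, and the sequences are written in the direction of transcription. Capitals mark matches to the motifs searched.
Ccl9: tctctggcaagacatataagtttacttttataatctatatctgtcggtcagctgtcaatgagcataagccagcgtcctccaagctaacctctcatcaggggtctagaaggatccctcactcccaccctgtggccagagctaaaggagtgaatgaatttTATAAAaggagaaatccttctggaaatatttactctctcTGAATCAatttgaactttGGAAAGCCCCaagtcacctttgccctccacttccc
Ccl6: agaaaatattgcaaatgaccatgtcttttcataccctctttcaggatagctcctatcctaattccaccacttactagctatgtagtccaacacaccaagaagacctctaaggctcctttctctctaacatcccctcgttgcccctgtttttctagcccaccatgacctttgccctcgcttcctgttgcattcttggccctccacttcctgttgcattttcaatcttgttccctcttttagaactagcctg
The Ccl9 window held 3 of the 6 motifs searched, and the Ccl6 window held 0. The matches in Ccl9 were to TATAAA, the letters of a TATA box (forward strand only), beginning 92 bases before the start site, to an AP-1 site (TGANTCA) at 53 bases and to an NF-kB site, read on the reverse strand, at 35 bases. None overlapped another. Over 32851 promoter windows of the same length, 7.59% held TATAAA, 6.75% the AP-1 site and 5.0% the NF-kB site, each at any position. The share of windows holding 3 of the motifs was not counted, and the position of a match was not tested. The other motifs, searched like the AP-1 and NF-kB sites on both strands, were the C/EBP site TTGCNNCAA (1.74% of windows), the PU.1 core GAGGAAG (10.6%) and the interferon response element, which is GAAA, any 2 bases and GAAA again (2.98%). A match describes these letters and shows no binding. Of the 7 genes, 5 had an entry in the promoter table, and beside Ccl9 only Ccrl2 held a match, to the NF-kB site at 56 bases. That match was in the window of start site 1 of Ccrl2, and the windows of its start sites 2 and 3 held none.

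Ccl3 and Ccl4, which encode the closely related chemokines MIP-1alpha and MIP-1beta, had uneven levels among ICAM1-low libraries. Ccl4 (ENSMUSG00000018930) stood at 12.8, 7.71, 8.04 and 67.7 CPM in ICAM1-low replicates 1, 2, 3 and 5 and at 109, 43.3, 26.5 and 95.1 CPM in ICAM1-high replicates 1, 2, 3 and 5. In each of the 4 pairs of equal number the ICAM1-high library was the higher, but ICAM1-low replicate 5 lay within the ICAM1-high range. The log2 fold change was 1.51 ± 0.79 (SE) and did not pass the threshold (edgeR adjusted p = 0.358). Without ICAM1-low replicate 5 the remaining ICAM1-low libraries averaged 9.52 ± 2.85 CPM (SD, n = 3), all below every ICAM1-high library, and the log2 fold change was 2.83 (edgeR adjusted p = 0.0346). Without both libraries numbered 5 it was 2.64 and not past the threshold (edgeR adjusted p = 0.0587).

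Ccl3 (ENSMUSG00000000982) stood at 36.4, 8.89, 8.31 and 125 CPM in ICAM1-low replicates 1, 2, 3 and 5 and at 55.0, 36.5, 21.7 and 85.8 CPM in the ICAM1-high replicates. On the TMM scale ICAM1-low replicate 5 exceeded every ICAM1-high library. The size of the difference between the means depended on that library: the ICAM1-low mean was 44.7 ± 55.2 CPM (SD, n = 4) with it and 17.9 ± 16.1 CPM (SD, n = 3) without it, beside 49.7 ± 27.6 CPM (SD, n = 4) in ICAM1-high libraries. The log2 fold change was 0.16 ± 0.83 (SE; edgeR adjusted p = 0.945) with all libraries and 1.46 (edgeR adjusted p = 0.258) without that library. Ccl3 and Ccl4 transcripts shared no 31-base stretch with each other or with any other annotated gene, so reads of that length would not be split between them. Among the 7 genes Ccl9 had the largest share of 31-base stretches found in another gene, 7.5%, and no pair of the 7 shared any.

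Ccl5 had the lowest mean level of the 7 genes in both groups, though not the lowest length-corrected level in every library. Ccl5 (ENSMUSG00000035042) encodes RANTES, a chemokine made in quantity by T and NK cells and also by activated myeloid cells. It stood at 0.256, 0, 0.266 and 2.02 CPM in ICAM1-low replicates 1, 2, 3 and 5 and at 1.57, 7.37, 3.33 and 40.4 CPM in ICAM1-high replicates 1, 2, 3 and 5. The library numbered 5 was the highest of its group in both groups, and ICAM1-low replicate 5 lay above ICAM1-high replicate 1, so the groups overlapped at that point only. The 0 in ICAM1-low replicate 2 allows up to 0.178 CPM by the floor of 3 counts. Ccl5 was kept for the test only through its ICAM1-high levels, so the direction of its difference was largely fixed by the filter. The log2 fold change was 4.39 ± 1.53 (SE), positive in 4 of 4 pairs, with an edgeR adjusted p of 0.183. The value was 2.76 without ICAM1-high replicate 5 (edgeR adjusted p = 0.475) and 6.16 without ICAM1-low replicate 5 (edgeR adjusted p = 0.0578), and by DESeq2 it was 4.26 with an adjusted p of 0.0121.

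The 14 T and NK cell markers examined summed to 2.28 to 60.2 CPM in the ICAM1-low and 94.4 to 389 CPM in the ICAM1-high libraries, without overlap, and 12 of the 14 were at 0 in at least 1 ICAM1-low library. Of these markers 11 were tested and only Cd4 passed the threshold, higher in ICAM1-high, where 1.22% of all genes were. At or under the floor in at least 3 ICAM1-low libraries were 4 of the 11, so their direction was fixed by the filter. ICAM1-high replicate 2 had the highest sum, 389 CPM, but not the highest Ccl5, and ICAM1-low replicate 5, with the highest Ccl5 of its group, had the lowest sum, 2.28 CPM. The part of T and NK cells in the difference of Ccl5 was not tested.

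Both receptor genes were highest in the library that stood apart. Ccr1 (ENSMUSG00000025804), the receptor for CCL3, CCL5, CCL6 and CCL9 on neutrophils and monocytes, stood at 205, 247, 114 and 1722 CPM in ICAM1-low replicates 1, 2, 3 and 5 and at 98.3, 165, 169 and 286 CPM in the ICAM1-high replicates. Apart from the 1722 CPM of ICAM1-low replicate 5, the groups covered the same range. The log2 fold change was -1.67 ± 0.80 (SE; edgeR adjusted p = 0.319) with all libraries and -0.07 (edgeR adjusted p = 0.953) without that library. The level was lower in ICAM1-high in 3 of 4 pairs.

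Ccrl2 (ENSMUSG00000043953) stood at 361, 555, 202 and 2086 CPM in ICAM1-low replicates 1, 2, 3 and 5 and at 846, 924, 416 and 463 CPM in the ICAM1-high replicates. It was higher in ICAM1-high in pairs 1, 2 and 3, by 2.34, 1.66 and 2.07 times, and lower in the libraries numbered 5, at 0.222 times the ICAM1-low level. The log2 fold change was accordingly -0.27 ± 0.69 (SE; edgeR adjusted p = 0.875) with all libraries and 0.83 (edgeR adjusted p = 0.354) without ICAM1-low replicate 5. Its direction also turned with library sizes alone as the scaling, to 0.13. ICAM1-low replicate 5 held 38105 CPM of summed neutrophil markers against 7902 to 17431 CPM in the other ICAM1-low libraries, and their part in its levels of Ccr1 and Ccrl2 was not tested. Ccrl2 lies next to Ltf, the lactoferrin gene on the neutrophil marker list, in the RefSeq order on chromosome 9.

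Ratios of genes within a library do not depend on the scaling between libraries, and they are given as a description, chosen after the levels were seen. The level per length was taken as TPM (a length-corrected level), computed from the counts and the gene lengths of the table. Ccl9 stood at 0.139, 0.133, 0.214 and 0.0707 times the TPM of Ccl6 in ICAM1-low replicates 1, 2, 3 and 5 and at 0.982, 0.838, 1.04 and 1.94 times in the ICAM1-high replicates. The ratio was thus higher in every ICAM1-high library than in any ICAM1-low library, ICAM1-low replicate 5 included. The ratio of Ccl4 to Ccl3 in TPM was 0.425, 1.05, 1.17 and 0.655 in ICAM1-low replicates 1, 2, 3 and 5 and 2.39, 1.44, 1.48 and 1.34 in the ICAM1-high replicates, again without overlap. The ratio of Ccr1 to Ccrl2 overlapped, at 0.318 to 0.588 in the ICAM1-low and 0.0827 to 0.441 in the ICAM1-high libraries. A ratio shows that its genes differed unequally, and not which of them was constant.

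The make-up of the 5 ligands showed the same. Ccl6 made up 59.2 to 84.0% of their summed TPM in ICAM1-low libraries and 11.9 to 42.2% in ICAM1-high libraries, while Ccl9 made up 4.19 to 16.5% and 23.1 to 41.2%. The summed TPM itself overlapped, at 497 to 1222 in the ICAM1-low and 1035 to 2431 in the ICAM1-high libraries. ICAM1-high replicate 5 differed from the other ICAM1-high libraries, with Ccl6 at 11.9% and Ccl5 at 16.7% of the sum.

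**Figure D2:**
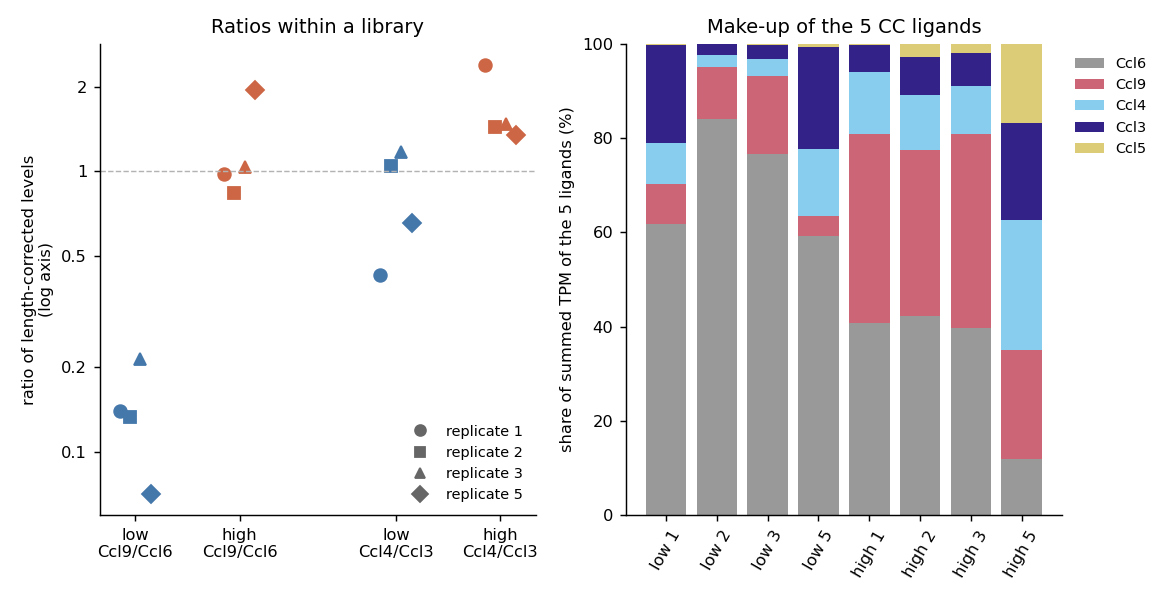
Left, ratio of the length-corrected levels (TPM) of Ccl9 to Ccl6 and of Ccl4 to Ccl3 in each library, on a log axis with a dashed line at equal levels; right, share of each of the 5 ligands in their summed TPM per library, in percent. Both ratios are higher in all 4 ICAM1-high libraries than in any ICAM1-low library, and the share of Ccl6 is 59.2 to 84.0% in the ICAM1-low and 11.9 to 42.2% in the ICAM1-high libraries.

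By mean TPM the order in ICAM1-low libraries was Ccl6 (624 ± 250.5), Ccrl2 (618 ± 568), Ccr1 (305 ± 365), Ccl3 (104 ± 114), Ccl9 (83.7 ± 42.7), Ccl4 (67.7 ± 71.3) and Ccl5 (2.47 ± 3.32; SD, n = 4). Neighbours in this order overlapped in range except Ccl4 and Ccl5. Without ICAM1-low replicate 5 the order was Ccl6 (591 ± 296), Ccrl2 (343 ± 168), Ccr1 (123 ± 46.6), Ccl9 (94.6 ± 45.1), Ccl3 (50.3 ± 45.4), Ccl4 (32.3 ± 9.85) and Ccl5 (0.832 ± 0.720; SD, n = 3), with Ccl9 above Ccl3. In ICAM1-high libraries it was Ccrl2 (598 ± 229), Ccl9 (527 ± 313), Ccl6 (521 ± 362), Ccl4 (218 ± 104), Ccl3 (132 ± 60.9), Ccr1 (117 ± 46.2) and Ccl5 (59.3 ± 77.7; SD, n = 4), and all neighbours overlapped in range, although Ccl4 exceeded Ccl3 in each of the 4 libraries. Ccl6 and Ccrl2 were among the most abundant transcripts of both groups: 1.56 and 1.59% of the genes tested had a higher mean TPM in ICAM1-low, and 2.01 and 1.69% in ICAM1-high libraries. For Ccl9 these shares were 14.7% in the ICAM1-low and 1.94% in the ICAM1-high libraries.

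How the 7 genes varied together is given as Pearson's r of log2(CPM + 1) over the 8 libraries, which share the group difference and the libraries that stand apart. Ccl3 and Ccl4 followed each other (r = 0.87, and 0.88 over 7 libraries without ICAM1-low replicate 5). Ccr1 and Ccrl2 did so with that library (r = 0.67) and not without it (r = 0.00). Ccl9 and Ccl6 had an r of 0.10, and 0.29 without that library.

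The genes with the most similar pattern were sought among tested genes whose average log2 CPM was at least 4, and 3 are given for each. For Ccl9 they were Rai14 (r = 0.98), the MHC class II chaperone gene H2-DMb2 (0.98) and the myeloid transcription factor gene Cebpa (0.98). For Ccl6 they were Spata2 (0.99), Rnf19a (0.98) and the cell cycle phosphatase gene Cdc25b (0.96). For Ccl3 they were Nmi (0.98), Bin2 (0.95) and the myeloid lectin gene Clec5a (0.95), and for Ccl4 Klra2 (0.98), B2m, the light chain of MHC class I (0.98), and Dgkz (0.98). For Ccl5 they were Nop56 (0.95), the proliferation marker gene Mki67 (0.94) and Ap1s1 (0.94). For Ccr1 they were Zc3hav1 (0.99), the kinase gene Syk (0.99) and the actin cross-linker gene Flna (0.99), and for Ccrl2 N4bp1 (0.97), Zcchc2 (0.97) and Rnf31 (0.96). These are the highest values among about 7538 candidate genes over 8 libraries. Of these 21 genes H2-DMb2 alone passed the threshold between the groups (log2 fold change 4.29, edgeR adjusted p = 0.033).

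Several monocyte-attracting CC ligands were higher in ICAM1-high libraries. Of 18 other CC ligand genes listed, 13 were in the table and 8 were tested; 4 of these rose in ICAM1-high libraries and none fell, against 1.22 and 0.273% of all genes tested. The 4 were the monocyte chemoattractants Ccl12, Ccl8, Ccl7 and Ccl2. Ccl2 rose from 22.1 ± 9.72 to 113 ± 49.2 CPM and Ccl7 from 8.48 ± 5.46 to 145 ± 65.6 CPM (SD, n = 4), with log2 fold changes of 2.35 ± 0.51 and 4.09 ± 0.83 (SE; edgeR adjusted p = 0.0495 and 0.0408). Ccl12 and Ccl8 rose by 3.85 ± 0.54 and 4.23 ± 0.71 on the log2 scale (edgeR adjusted p = 0.0119 and 0.0187). Of the 8, 3 (Ccl1, Ccl17 and Ccl22) were at or under the floor in at least 3 ICAM1-low libraries and were kept for the test only through their ICAM1-high levels, so their direction was fixed by the filter. The median log2 fold change of the other 5 was 3.85, beside -0.07 over all genes. The count changed with the library left out, as did the share of all genes tested that was called higher. Leaving out ICAM1-low replicate 1 gave 0 (0.0284% of all genes), and leaving out ICAM1-high replicate 1, 2 or 5 gave 1 (0.294, 0.397 and 0.398%). Leaving out ICAM1-high replicate 3 or ICAM1-low replicate 2 gave 2 (0.502 and 0.512%). Leaving out ICAM1-low replicate 3 gave 3 (0.847%), and leaving out ICAM1-low replicate 5 gave 4 (2.36%). The other CC ligands made up 5.11 to 16.8% of the summed TPM of all CC ligands in the ICAM1-low and 33.8 to 49.7% in the ICAM1-high libraries.

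Of 13 other CC and atypical receptor genes listed, 12 were in the table and 5 were tested. Against 1.22 and 0.273% of all genes tested, 1 rose and none fell. It was Ccr2, the receptor for CCL2 on monocytes, which stood at 13.7, 27.1, 44.9 and 24.0 CPM in ICAM1-low replicates 1, 2, 3 and 5 and at 449.7, 275, 400.1 and 418 CPM in the ICAM1-high replicates. The groups were far apart, and Ccr2 rose from 27.4 ± 12.98 to 386 ± 76.7 CPM (SD, n = 4), by 3.81 ± 0.50 (SE) on the log2 scale with an edgeR adjusted p of 0.00992. Ccr9 was likewise at or under the floor in 3 ICAM1-low libraries, and the median log2 fold change of the other 4 was 0.94. No receptor gene was past the threshold without ICAM1-low replicate 1, where 0.0284% of all genes tested were called higher and 0 lower. Leaving out ICAM1-low replicate 5 gave 2 higher and 1 lower, where 337 and 241 of 14286 genes were called higher and lower. Counts of cell type markers are given beside the 1.22% of all genes tested that rose and the 0.273% that fell. Of the macrophage markers 10 of 17 rose and none fell. Of the dendritic cell markers 3 of 8 tested rose and none fell, with sums of 112 to 286 CPM in ICAM1-low against 1181 to 2356 CPM in ICAM1-high. Of these 8, 2 were at or under the floor in at least 3 ICAM1-low libraries, so their direction was fixed by the filter. The 9 monocyte markers, Ccr2 among them, were divided, with 3 that rose (Cx3cr1, Ms4a4c and Ccr2) and 1 that fell (Ly6c2). Their sum was lower in ICAM1-high, at 3113 to 5376 CPM against 8415 to 15429 CPM, without overlap. Of the neutrophil markers 7 of 15 fell and none rose. The part of these cell types in the results for the ligands and for Ccr2 was not tested.

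All 22 genes listed for signalling from chemokine receptors were tested, with a median log2 fold change of 0.11. Of these, 2 rose and none fell, against 1.22 and 0.273% of all genes tested. They were Grk3, a kinase that phosphorylates active receptors (4.73 ± 0.71, edgeR adjusted p = 0.0131), and Rgs1, which shortens G protein signalling (3.42 ± 0.55, edgeR adjusted p = 0.0167). Grk3 stood at 5.29 ± 4.95 CPM in the ICAM1-low and 141 ± 35.6 CPM in the ICAM1-high libraries, and Rgs1 at 52.0 ± 27.9 and 558 ± 244 CPM (SD, n = 4). The G protein, arrestin and phosphoinositide 3-kinase genes on the list did not pass the threshold. Without ICAM1-low replicate 1 or without ICAM1-high replicate 1 the count was 1, where 0.0284 and 0.294% of all genes tested were called higher.

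**Figure D3:**
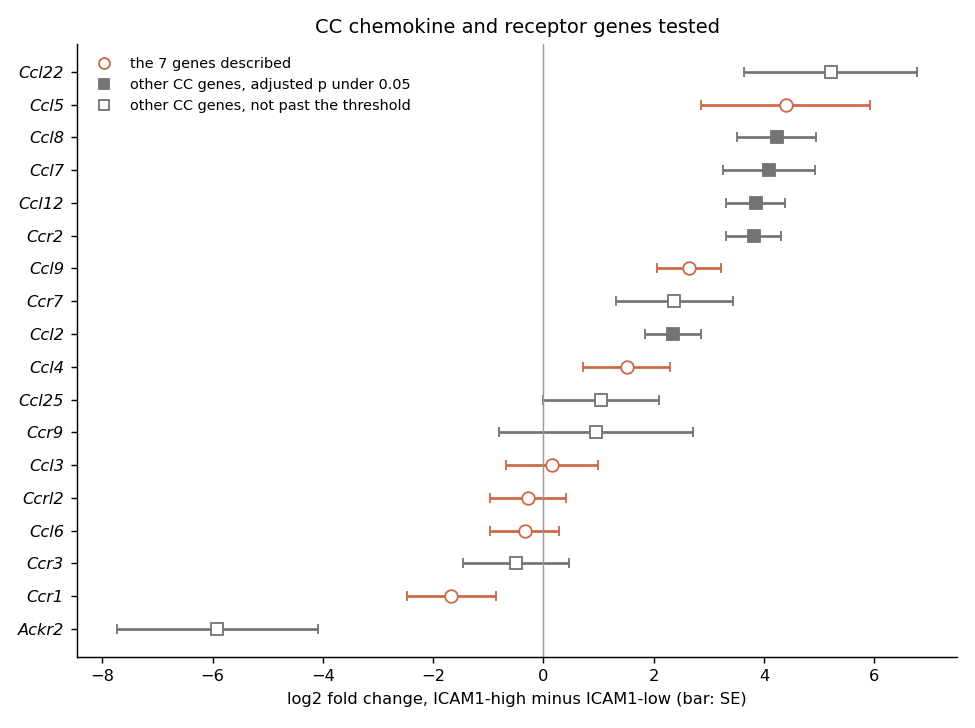
Log2 fold change, ICAM1-high minus ICAM1-low, with its standard error for the 7 genes described (circles) and the other CC ligand and receptor genes tested (squares, filled where past the threshold); 2 ligand genes at 0 in all ICAM1-low libraries are not drawn. The 7 genes spread from -1.67 for Ccr1 to 4.39 for Ccl5 and none of their symbols is filled, while those of 4 ligands and 1 receptor are.

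Read against all genes, the settings differed in how many they called. Ccl9 was called higher where 1.56% of genes were (upper-quartile scaling), 1.90% (library sizes only), 3.54% (limma-voom), 0.958% (no filter), 2.11% (at least 10 CPM in 4 libraries), 2.06% (replicate block) and 1.59% (without both libraries numbered 5), and with Ccl5 where 4.30% were (DESeq2). None of the 7 was called with RLE scaling, which called 0.921% of genes higher. Nor was any called without ICAM1-high replicate 1, 2, 3 or 5 (0.294, 0.397, 0.502 and 0.398% of genes) or without ICAM1-low replicate 1, 2 or 3 (0.0284, 0.512 and 0.847%).

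Leaving out 1 library at a time, log2 fold changes ran from -0.19 to 1.46 for Ccl3, 1.19 to 2.83 for Ccl4, -2.01 to -0.07 for Ccr1 and -0.59 to 0.83 for Ccrl2, and in each case the highest value came when ICAM1-low replicate 5 was left out. Those of Ccl9 ran from 2.02 without ICAM1-high replicate 1 to 2.88 without ICAM1-high replicate 5, and stayed positive in all 17 alternatives.

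**Figure D4:**
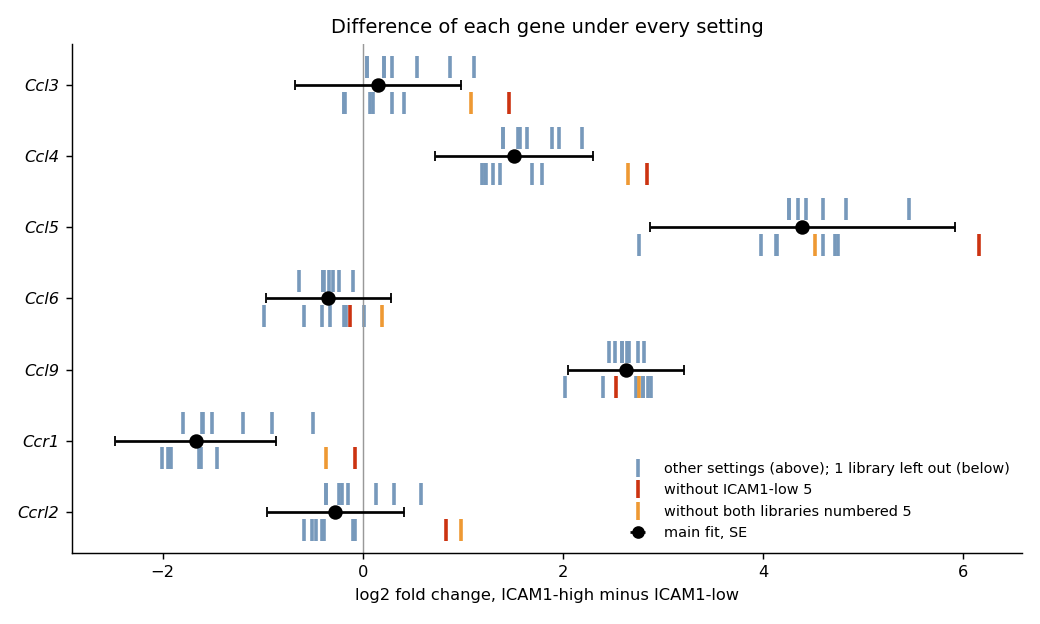
Log2 fold change of each gene, ICAM1-high minus ICAM1-low, with all libraries (black, bar SE) and under the alternatives; ticks above are other scalings, filters and tests, and ticks below leave libraries out, with ICAM1-low replicate 5 left out in red and both libraries numbered 5 in orange. Ccr1 moves from -1.67 to -0.07 and Ccl4 from 1.51 to 2.83 without ICAM1-low replicate 5, while Ccl9 stays between 2.02 and 2.88.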

How the data were processed

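Gene expression had been measured by RNA sequencing in 8 libraries, made per the labels' protocols with a single-cell RNA library kit from 150 pg of total RNA. The table that the authors deposited holds estimated counts for each gene; Trim Galore 0.6.6, Salmon 1.9.0 and GRCm39 (mm39) are named in the submitters' processing notes. The annotation was not given in the sources used here. Each gene has 1 length in the table. Of 25669 rows, repeats of 88 gene identifiers, with identical values, were dropped. Counts were rounded, filtered with filterByExpr by group (13575 genes kept), scaled by TMM and tested with edgeR 4.0.16 in R 4.3.3 (quasi-likelihood, robust, group as the only term). The standard error is the log2 fold change over the root of F. TPM was computed from counts and lengths. Shared 31-base stretches and overlapping genes were read from GENCODE transcripts of GRCm38, and promoters from RefSeq. The steps were tested on simulated counts with known differences. They recovered 0 of 50 genes changed 2-fold, 6 of 50 changed 4-fold, 28 of 50 changed 8-fold and 44 of 50 changed 16-fold. A gene not past the threshold can therefore still differ between the groups.

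The alternatives were RLE, upper-quartile and no scaling, DESeq2 1.42.0, limma-voom (limma 3.58.1) with sample weights, no filter, at least 10 CPM in 4 libraries, a replicate block and leaving out each library; leaving out both libraries numbered 5 was added after seeing the data. The members, gene lists, tests and alternatives were chosen with earlier results of these data known. Named genes are the 7 members, Icam1, pathway list genes past the threshold (or the smallest p where a list had none) and, for each member, the 3 genes most correlated with it, without pseudogenes, receptor segments or predicted genes. Ccl22, Ccr9, marker genes and the genes under the other observations (Ccl1, Ccl17, Ccr6, Ccr8 and Ackr2) fall outside this rule and were named after their values were seen. One listed receptor gene is not reported here. The lists were 3 of the pathway and 9 of cell type markers. Values of the monocyte and dendritic cell lists are given in the results and again under the other observations. Those of the B cell and plasma cell, mast cell, basophil and eosinophil, epithelial and tumour, and fibroblast lists are given under the other observations only.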

Additional observations from a re-analysis of the deposited data

Results flagged for a closer look

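In 48 groups of 4 values (the 7 genes, Icam1, the 7 named list genes and the 9 marker sums, each in both groups), 6 had a highest library far from the others by Dixon's criterion. Chance gives about 1 in 20 only for independent groups of normally distributed values. These groups are CPM from the same 8 libraries, so that rate is no measure for them, and the 6 are given as a description. Of these, 4 were in ICAM1-low replicate 5: Ccr1 at 1722 CPM against 114 to 247 CPM in the other ICAM1-low libraries, Ccl4 at 67.7 against 7.71 to 12.8 CPM, Ccl5 at 2.02 against 0 to 0.266 CPM, and Icam1 at 138 against 4.31 to 18.7 CPM. In ICAM1-high replicate 5, Ccl5 stood at 40.4 CPM against 1.57 to 7.37 CPM. In ICAM1-high replicate 1, Rgs1 stood at 923 CPM against 406 to 465 CPM.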

How the results depend on the processing

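In the main fit (all 8 libraries, TMM scaling) 0 of the 7 genes passed, and 1 or 2 were called higher under several other settings, most of them also with all 8 libraries. Ccl9 passed with the filter of 10 CPM (2.64), library sizes only (2.81), limma-voom (2.52), no filter (2.66), upper-quartile scaling (2.75), DESeq2 (2.58) and without both libraries numbered 5 (2.76); Ccl5 passed by DESeq2 (4.26). Each of these settings called 1 of the 7 genes higher, except DESeq2 with 2. Ccrl2 turned positive with library sizes only (0.13), limma-voom (0.58) and without both libraries numbered 5 (0.98), where Ccl6 was 0.19. With the replicate block Ccl9 was 2.46 with an edgeR adjusted p of 0.0471, the only 1 of the 7 called, Ccrl2 was 0.32, and 280 and 261 genes were called higher and lower, with 1 receptor gene lower. Same-numbered libraries deviated together unevenly (r = -0.18, 0.11, 0.17 and 0.37 for replicates 1, 2, 3 and 5). ICAM1-low replicates 2, 3 and 5 correlated best with their own number and ICAM1-low replicate 1 with ICAM1-high replicate 3 (0.17). This is a hint from the data; the labels do not say what a number marks, so the samples were not treated as pairs.

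Over all genes, 166 were called higher and 37 lower. Called higher were 258 with library sizes only, 584 with DESeq2 and 480 with limma-voom; called lower were 61 with the 10 CPM filter, 649 with DESeq2, 376 with limma-voom, 120 with no filter and 190 without both libraries numbered 5. CC ligands called higher were 7 with limma-voom; receptors called higher were 3 with no filter, and 1 was called lower by DESeq2, as was 1 signalling gene. Leaving out 1 library at a time, 4 to 337 genes were called higher and 0 to 241 lower, 0 to 2 of the 7 genes, 0 to 4 CC ligands, 0 to 2 receptors and 1 to 3 signalling genes were higher, and 0 to 1 receptors lower. Log2 fold changes then ran from -0.19 to 1.46 for Ccl3 (negative without ICAM1-low replicate 2, ICAM1-low replicate 3 or ICAM1-high replicate 5), 1.19 to 2.83 for Ccl4, 2.76 to 6.16 for Ccl5, -0.99 to 0.0089 for Ccl6 (positive without ICAM1-high replicate 5), 2.02 to 2.88 for Ccl9, -2.01 to -0.07 for Ccr1 and -0.59 to 0.83 for Ccrl2. Fewer libraries were tested in these fits; otherwise the cause was not tested. DESeq2 gave no p for Ccr1, and the 10 CPM filter left Ccl5 out. Group means of the 7 genes moved by less than 1 SD between TMM and library-size CPM. Over all genes the median was -0.07 with TMM and 0.17 with library sizes only.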

Other observations

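Some CC genes of low abundance, picked out after their values were seen, were at 0 in all 4 ICAM1-low libraries and above 0 in all 4 ICAM1-high libraries. How many of all genes had this pattern was not counted. The genes detected per library numbered 15779 to 17772 in the ICAM1-low and 16601 to 19431 in the ICAM1-high libraries. Ccl1, a CCR8 ligand, stood at 5.51, 1.09, 1.35 and 0.718 CPM and Ccl17, a CCR4 ligand, at 1.38, 1.05, 0.724 and 0.939 CPM in ICAM1-high replicates 1, 2, 3 and 5. Their edgeR adjusted p values were 0.0618 and 0.0611, so neither passed. Ccr8 stood at 0.285, 8.38, 1.16 and 4.25 CPM and Ccr6 at 0.428, 13.1, 3.77 and 7.01 CPM in the same libraries, and neither was kept for the test. Ackr2, an atypical receptor that takes up inflammatory CC chemokines without signalling to migration, went the other way, at 15.6, 5.87, 83.1 and 0.263 CPM in ICAM1-low and 0, 1.25, 0.435 and 0 CPM in ICAM1-high replicates 1, 2, 3 and 5 (log2 fold change -5.92 ± 1.82 SE; edgeR adjusted p = 0.139).

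Marker sums of other cell types, in CPM, were 8415 to 15429 in ICAM1-low and 3113 to 5376 in ICAM1-high libraries for monocytes, 112 to 286 and 1181 to 2356 for dendritic cells, 399.7 to 855 and 632 to 2430 for B and plasma cells, 63.3 to 153 and 16.01 to 47.2 for mast cells, basophils and eosinophils, 0.319 to 78.9 and 8.17 to 24.5 for epithelial and tumour cells, and 1801 to 2780 and 464 to 2023 for fibroblasts. The list genes past the threshold numbered 3 higher and 1 lower for monocytes, 3 higher for dendritic cells and 1 lower for fibroblasts, and none in the other 3 lists. Over all genes tested, 1.22% were higher and 0.273% lower.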
